A study of Mus musculus with 55 samples.

Results

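The comparison described here set acetylation of histone H3 at lysine 27 (H3K27ac) in mouse bone marrow-derived macrophages after 6 h of lipopolysaccharide (LPS) against the same measurement after 2 h of LPS. Its members were the 4 H3K27ac libraries of cells given LPS alone, 2 at 6 h and 2 at 2 h, of 55 samples in the series, chosen by their titles and paired by replicate number. The question was which regions and genes carried more or less acetylation late in the response than early in it. H3K27ac was counted by chromatin immunoprecipitation sequencing in 1000 bp windows centred on 97113 regions of open chromatin, which came from ATAC-seq of another study, in untreated macrophages and in macrophages given Kdo2-lipid A, a purified ligand of TLR4. The cells came from C57BL/6 mice, were grown in L-cell conditioned medium as a source of M-CSF and were kept overnight in 0.5% serum before treatment. LPS was given at 10 ng/ml. The libraries set beside them were from cells given 3'-sialyllactose (3'SL, a sugar of human milk, at 100 µg/ml) with LPS for 6 h or 2 h, 3'SL alone for 6 h or 2 h, or the vehicle PBS, and 2 H3K27ac libraries of each group were analysed, except PBS at 6 h, where 1 was. Peak lists of the factors LXR and SREBP were also used. They came from macrophages given 1 µM of GW3965, which activates LXR, for 18 h, with 2 LXR libraries and 1 SREBP library. The sources used here do not give the age or sex of the mice. They also do not say if the replicates are different mice or different cultures, so p-values measure the spread between these libraries, which may be technical.

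LPS is sensed on macrophages by TLR4, which switches on NF-kB, AP-1 and, through interferon beta, STAT and IRF factors. The first targets are cytokines, chemokines and feedback inhibitors of NF-kB. Later targets depend on newly made proteins and on secreted interferon. H3K27ac marks active promoters and enhancers and is placed by the acetyltransferases CBP and p300, so its level at a region tends to follow the activity of the factors bound there. PU.1 and C/EBP factors, AP-1, MAF factors and the MiT family (MITF, TFEB and TFE3, which drive lysosomal genes) act at the enhancers that macrophages hold without a stimulus.

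The 6 h libraries held 15.5 M and 7.42 M tags (replicates 1 and 2) and the 2 h libraries 16.8 M and 13.2 M, among 4.20 M to 39.6 M in the 15 H3K27ac libraries of the fit. Tags summed over the windows, which can overlap, came to 60.2% and 73.1% of the total at 6 h and 61.8% and 72.4% at 2 h, so replicate 2 had more of its tags in windows at both times. The inputs held 8.65% and 8.80%. The library titled 2 h of replicate 1 carries a treatment label of 1 h. The same holds for 3'SL with LPS and for 3'SL alone in replicate 1, and the replicate 2 libraries of 3'SL with LPS carry treatment or source labels of an input or of vehicle. Titles were followed. The 8 macrophage markers (Spi1, Csf1r, Adgre1, Cd68, Itgam, Fcgr1, Cd14, Lyz2) all had acetylation, with a summed level of 19023 to 20824 scaled tags at 6 h and 13025 to 17636 at 2 h. Of 28 markers of other blood, stromal and vessel cells, 21 had a region, with sums of 2927 to 3579 at 6 h and 2332 to 4152 at 2 h and a median per gene of 19.3 and 16.2 scaled tags, against 2534 and 1829 for the macrophage markers. The sum over macrophage markers was thus higher in both 6 h libraries than in both 2 h libraries, and its part in the results was not tested.

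Acetylation differed between 6 h and 2 h of LPS at 1378 of 77387 tested regions (1.78%), and gains outnumbered losses. At 6 h, 1104 regions were higher (1.43%), with 583 nearest genes, and 274 were lower (0.354%), with 169 nearest genes. Levels are tags per 10000000 mapped tags, rescaled by the tags in tested windows, and are called scaled tags. A region or gene was called where limma's moderated test on log2(scaled tags + 1), with the replicate number as a block, gave an adjusted p under 0.05. At gained regions the median level was 189 and 207 scaled tags in the 6 h libraries (replicates 1 and 2), against 80.1 and 78.9 in the 2 h libraries. At lost regions it was 74.2 and 65.2 at 6 h, against 181 and 192 at 2 h. These levels chose the regions and are a description. The calls rest on the pairing: without the replicate block limma called 0 regions and 0 genes (4371 regions and 1123 genes at an unadjusted p under 0.05), and edgeR without the block also called 0 and 0 (4107 and 1096). Without the 6 h library of replicate 2, which was the shallowest of the 4, 8 regions and 0 genes were called. Without the 6 h library of replicate 1 there were 490 calls, without the 2 h library of replicate 1 799, and without the 2 h library of replicate 2 265.

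**Figure D1:**
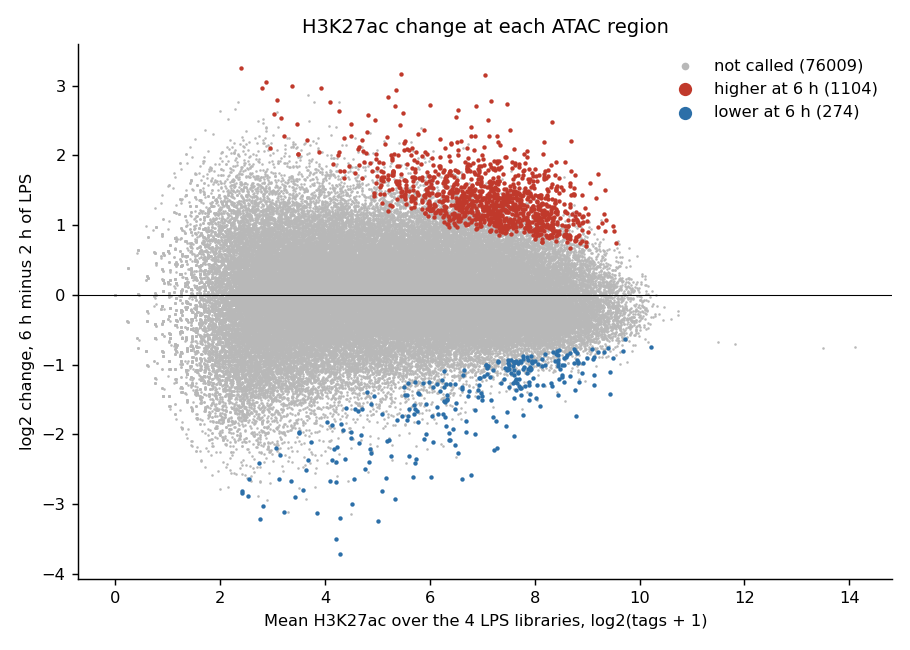
Change of H3K27ac at 6 h minus 2 h of LPS (log2 scale, vertical) against the mean level over the 4 LPS libraries (log2 of scaled tags + 1, horizontal) for the tested regions. Colour marks the 1104 regions called higher and the 274 called lower at 6 h.

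Sequences of 7 changed regions are given because they carry letters whose shares among gained and lost regions are given further on. Each is the central 200 bp of the window on the plus strand of GRCm38, read from RefSeq's assembly, and capitals mark the motif named for it. Of the gained regions, the one nearest 9130015L21Rik holds an AP-1 site, that nearest Ccnd1 a C/EBP site, that in Lrp1 a MAF recognition core (in reverse) and that at Gpnmb the E-box CACGTG.

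9130015L21Rik (chr2:160146845-160147044): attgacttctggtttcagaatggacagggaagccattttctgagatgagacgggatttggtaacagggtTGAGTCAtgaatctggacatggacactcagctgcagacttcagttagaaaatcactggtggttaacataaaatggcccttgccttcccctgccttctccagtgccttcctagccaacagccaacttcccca
Ccnd1 (chr7:145029706-145029905): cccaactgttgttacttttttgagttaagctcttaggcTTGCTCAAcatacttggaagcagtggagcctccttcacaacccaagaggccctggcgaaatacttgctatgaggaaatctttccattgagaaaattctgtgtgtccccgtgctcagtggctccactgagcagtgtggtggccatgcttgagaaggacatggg
Lrp1 (chr10:127587820-127588019): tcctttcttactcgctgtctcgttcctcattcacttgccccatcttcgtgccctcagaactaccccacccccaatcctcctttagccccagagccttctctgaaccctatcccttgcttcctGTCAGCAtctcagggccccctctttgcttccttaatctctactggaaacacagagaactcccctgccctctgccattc
Gpnmb (chr6:49035713-49035912): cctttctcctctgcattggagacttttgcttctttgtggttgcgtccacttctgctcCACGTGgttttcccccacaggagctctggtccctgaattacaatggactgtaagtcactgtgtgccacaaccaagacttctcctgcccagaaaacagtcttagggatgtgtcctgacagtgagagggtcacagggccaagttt

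Of the lost regions, that nearest Ikzf1 holds an NF-kB site, that in an exon of Nfkb1 an NF-kB site and a PU.1 site, and that in the first intron of Rel an M-box, the E-box variant bound by MiT factors, and a PU.1 site. The Rel region shows that letters more frequent among gained regions also stand in lost ones.

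Ikzf1 (chr11:11673098-11673297): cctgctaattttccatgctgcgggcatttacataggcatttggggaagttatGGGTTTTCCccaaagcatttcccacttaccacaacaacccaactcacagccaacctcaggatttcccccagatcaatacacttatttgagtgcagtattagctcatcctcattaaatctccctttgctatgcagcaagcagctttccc
Nfkb1 (chr3:135608177-135608376): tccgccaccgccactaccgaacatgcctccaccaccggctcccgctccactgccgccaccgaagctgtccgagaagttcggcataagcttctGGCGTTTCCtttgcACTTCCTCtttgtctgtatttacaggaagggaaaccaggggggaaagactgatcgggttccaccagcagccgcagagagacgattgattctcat
Rel (chr11:23769700-23769899): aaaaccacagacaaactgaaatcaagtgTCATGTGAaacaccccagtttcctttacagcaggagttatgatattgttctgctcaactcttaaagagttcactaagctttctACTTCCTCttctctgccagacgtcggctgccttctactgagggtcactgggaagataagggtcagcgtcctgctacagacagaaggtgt

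The region in Lrp1, an endocytic receptor that clears lipoproteins and dying cells, had 298 and 316 scaled tags at 6 h, against 51.2 and 39.8 at 2 h (log2 change 2.74 ± 0.26 SE, adjusted p 0.000835, the lowest of all regions). It lies in an intron, 33229 bp from the gene start. Of the 19 tested windows nearest Lrp1, 16 were gained. The region nearest Stab1, a scavenger receptor, had 229 and 270 scaled tags at 6 h, against 29.6 and 42.0 at 2 h (log2 change 2.78 ± 0.29). Within Saa3, an acute phase protein made by stimulated macrophages, a window 945 bp from the gene start (chr7:46714231-46715231) had 116 and 364 at 6 h, against 20.2 and 24.6 at 2 h (3.15 ± 0.46, adjusted p 0.0037). The region nearest Ccnd1, which encodes cyclin D1, had 89.5 and 50.9 at 6 h, against 16.2 and 3.62 at 2 h (2.94 ± 0.52). In each of these 4 regions both 6 h libraries stood above both 2 h libraries. These libraries also chose the regions, so this is a description, and the share of all tested regions without overlap was not counted. Without 1 LPS library at a time, the regions in Lrp1 and nearest Stab1 passed in all 4 fits. The other gained regions named by size were nearest 9130015L21Rik (log2 change 3.16), Xpo6 (2.83), Myof (2.72) and Cdca7l (2.71).

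The largest loss was an intergenic region near Ikzf1, which encodes the lymphoid and myeloid factor Ikaros. It had 12.8 and 1.30 scaled tags at 6 h, against 73.4 and 36.9 at 2 h (log2 change -3.24 ± 0.68, adjusted p 0.0247). A region near Cd83, a surface protein of activated dendritic cells and macrophages, had 7.10 and 3.91 at 6 h, against 47.1 and 31.1 at 2 h (-2.64 ± 0.42, adjusted p 0.0060). Near Bcl2l11, which encodes the death-promoting protein BIM, a region had 20.6 and 2.61 at 6 h, against 54.6 and 79.6 at 2 h (-2.92 ± 0.64). Near Errfi1, a feedback inhibitor of the EGF receptor, a region had 10.7 and 17.0 at 6 h, against 91.6 and 82.5 at 2 h (-2.60 ± 0.47). The groups did not overlap in any of these 4, which were chosen by the same libraries. The share of all tested regions without overlap was not counted, so this is a description. Leaving out 1 LPS library at a time gave log2 changes of -4.27 to -2.22 for the region near Ikzf1 and -4.39 to -1.48 for that near Bcl2l11. At 6 h they held 1.30 to 20.6 scaled tags, close to or below the median of all tested regions in the same libraries (32.7 and 31.3). The other lost regions named by size were nearest C030013C21Rik, Naglu, Asap1 and Gm20125. Of all 16 regions named by size, 11 passed without the 6 h library of replicate 1, 2 without that of 6 h replicate 2, 9 without that of 2 h replicate 1 and 5 without that of 2 h replicate 2.

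Some genes had many changed windows. Besides Lrp1 these were, for gains, Ctsd with 13 of 14 tested windows, Tfeb with 8 of 15, Jun with 8 of 44, Maf with 8 of 66 and Atp13a2, a lysosomal transporter, with 5 of 5. For losses they were Bcor, a corepressor, with 8 of 34, Cd83 with 6 of 16, Ikzf1 with 5 of 16, Nfkbiz with 4 of 25 and Rel with 4 of 20. These genes were picked after their values were seen. Of the gained windows 435, and of the lost windows 135, overlapped another called window, so windows of 1 gene share tags.

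Summed over the windows nearest each gene, acetylation differed for 413 of 17003 genes (2.43%): 354 rose (2.08%) and 59 fell (0.347%). The counts called in each gene list below are to be read beside these shares. A gene's nearest window need not regulate it, and the sum grows with the number of windows, so levels are compared within a gene only. On the authors' own scaling to total tags the split was 161 rises and 60 falls. Without the 6 h library of replicate 1 it was 58 and 24, without that of 2 h replicate 1, which the treatment label gives as 1 h, 140 and 11, and without that of 2 h replicate 2 it was 66 and 10. Of the 36 named genes called, 16 passed without 6 h replicate 1, 0 without 6 h replicate 2, 19 without 2 h replicate 1 and 13 without 2 h replicate 2.

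Lysosomal genes made up the list with the most rises. Of 26 lysosome and phagocytosis genes, 7 rose and 0 fell, beside 2.08% and 0.347% of all genes. Of the 26, 25 lay above 0 and the median log2 change was 0.53, beside 8612 of 17003 and 0.01 for all genes. The lists were chosen with earlier results of these data known. Ctsd, which encodes the aspartic protease cathepsin D, had 5339 and 5175 scaled tags at 6 h, against 1967 and 1583 at 2 h (log2 change 1.57 ± 0.19 SE, adjusted p 0.0026). Tfeb, the factor that activates lysosomal and autophagy genes, had 4149 and 3425 at 6 h, against 1418 and 1899 at 2 h (1.20 ± 0.22, adjusted p 0.0177). For both genes every 6 h library stood above every 2 h library. These libraries also chose the genes, so this is a description, and the share of all genes without overlap was not counted. Npc1, which exports cholesterol from the lysosome, had 1364 and 1220 at 6 h, against 706 and 432 at 2 h (1.22 ± 0.23, adjusted p 0.0173). Atp6v0d2, a subunit of the proton pump, had 1992 and 2152 at 6 h, against 1073 and 1042 at 2 h (0.97 ± 0.20, adjusted p 0.0281). The remaining members that rose were Psap, the precursor of the saposins (0.87 ± 0.20), Gusb, beta-glucuronidase (0.80 ± 0.16), and Gpnmb, a membrane glycoprotein of lysosome-rich macrophages.

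Gpnmb had 5442 and 1051 scaled tags at 6 h, against 2348 and 397 at 2 h, so replicate 1 stood above replicate 2 at both times and the groups overlapped. Within each replicate the 6 h library was higher (log2 change 1.31 ± 0.26, adjusted p 0.0255). Of the members that did not pass, Ctsh was nearest to the threshold (0.86, adjusted p 0.0513), Lamp2 was the one below 0 (-0.17, adjusted p 0.808), and Tfe3, the relative of Tfeb, was at 0.10 (adjusted p 0.820). On the authors' scaling 3 of the 26 rose and the median was 0.43. Without the 6 h library of replicate 1, 1 of the 26 rose, without 6 h replicate 2 0 rose, without 2 h replicate 1 3 and without 2 h replicate 2 2, with medians of 0.40 to 0.60 and 21 to 25 above 0.

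**Figure D2:**
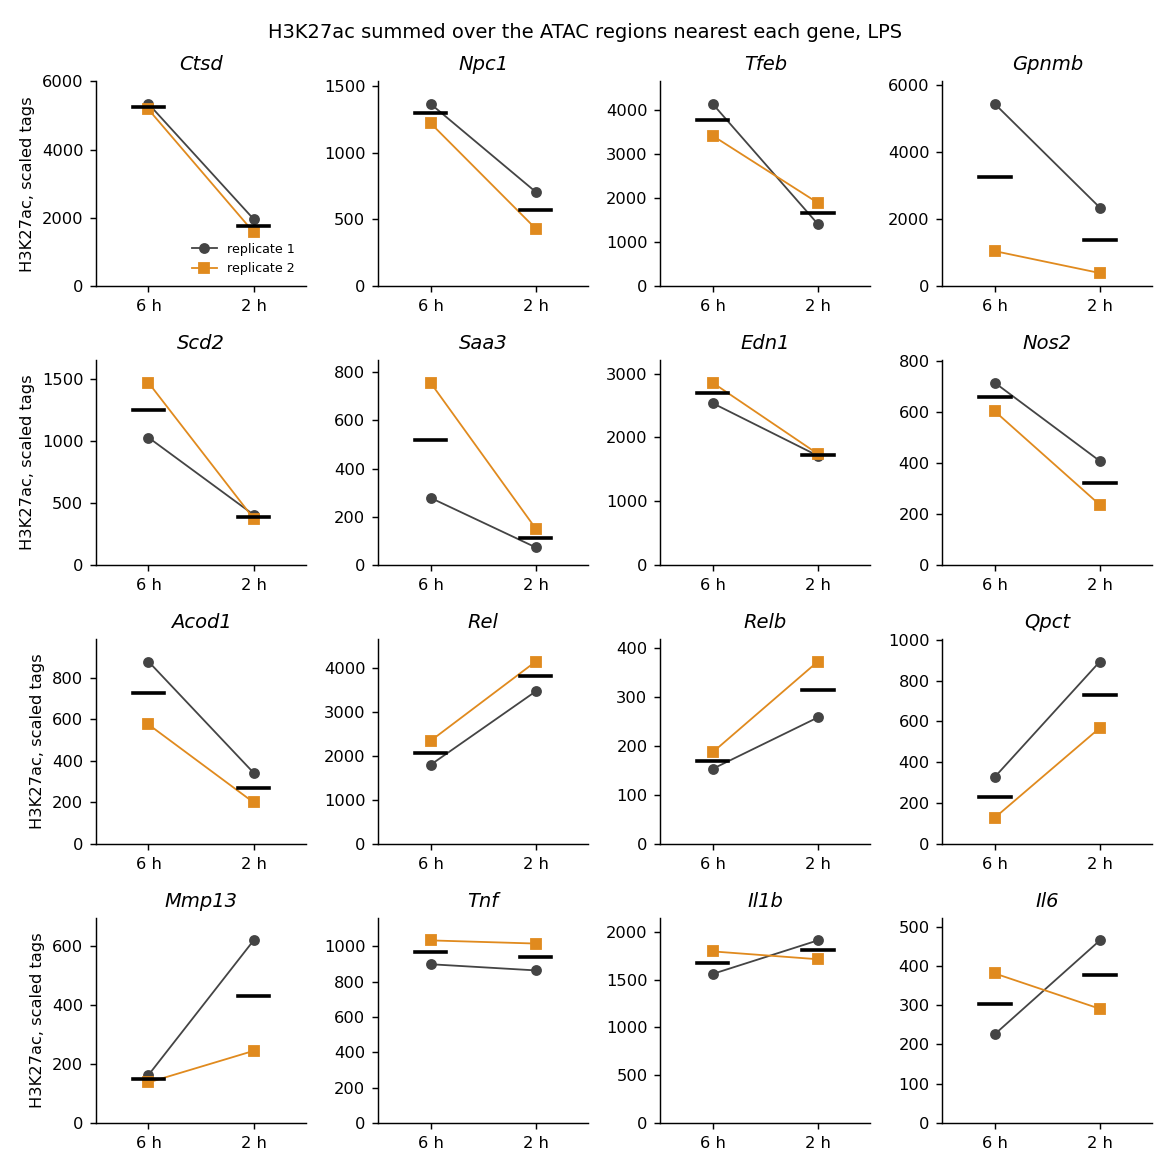
H3K27ac summed over the windows nearest each gene (scaled tags, vertical axis from 0), with a panel per gene and a line joining the 6 h and the 2 h library of the same replicate; short black bars are the means of 2 libraries. Ctsd and Tfeb are higher at 6 h in both replicates, Rel is lower at 6 h in both, and Gpnmb differs more between replicates than between times.

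Of the lipid genes, Scd2, a stearoyl-CoA desaturase, rose: it had 1030 and 1472 scaled tags at 6 h, against 407 and 376 at 2 h (log2 change 1.65 ± 0.31, adjusted p 0.0189). It was the single member of 16 fatty acid synthesis genes that passed, and 13 of them lay above 0 with a median of 0.51. Srebf1, the factor that drives that pathway, had a log2 change of 0.61 and Scd1 of 0.65 (adjusted p 0.120 and 0.109). Among 23 cholesterol synthesis genes 0 rose and 0 fell, with 16 above 0 and a median of 0.26. Hmgcs1 (0.78) and Lss (1.23) had adjusted p of 0.0985 and 0.0854. Among 14 LXR targets 0 rose and 0 fell, with 12 above 0 and a median of 0.27. The sterol exporter Abca1 had 3380 and 2671 at 6 h, against 2998 and 2064 at 2 h (0.27 ± 0.16, adjusted p 0.396), which did not pass. Por, which supplies electrons to squalene epoxidase and other microsomal enzymes, rose with 1736 and 2215 at 6 h, against 617 and 552 at 2 h (1.75 ± 0.26, adjusted p 0.0064).

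Of 25 early NF-kB response genes 2 fell and 0 rose, beside 0.347% and 2.08% of all genes, with 8 above 0 and a median of -0.17. Both that fell encode NF-kB subunits. Rel, which encodes c-Rel, had 1802 and 2348 scaled tags at 6 h, against 3474 and 4153 at 2 h (log2 change -0.88 ± 0.15, adjusted p 0.0115). Relb, a subunit of the noncanonical pathway, had 153 and 187 at 6 h, against 258 and 372 at 2 h (-0.87 ± 0.20, adjusted p 0.0399). For both genes every 6 h library lay below every 2 h library, but these libraries also made the calls. The share of all genes without overlap was not counted. With 1 LPS library left out at a time, the log2 change was -1.004 to -0.765 for Rel and -0.992 to -0.745 for Relb. The median of the list was then -0.36 to -0.14, with 4 to 10 members above 0. Each of these fits leaves 1 library in a group, so only sizes are given for them here. Sizes alone do not show that the 2 calls hold with fewer libraries. Nfkbiz and Nfkb2, a cofactor and another subunit, had log2 changes of -0.73 each and did not pass (adjusted p 0.0611 and 0.0873). The cytokine genes Tnf (0.04, adjusted p 0.955) and Il1b (-0.11, adjusted p 0.870) did not pass either, with 899 and 1035 scaled tags for Tnf at 6 h, against 864 and 1017 at 2 h.

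The late TLR4 list of 29 genes had 1 rise, Saa3, and 1 fall, Mmp13, with 17 above 0 and a median of 0.23. Without the 6 h library of replicate 2, 14 lay above 0 and the median was -0.10, and neither call was made in any of the 4 fits that leave out 1 LPS library. Saa3 had 279 and 755 scaled tags at 6 h, against 73.8 and 152 at 2 h (log2 change 2.11 ± 0.37, adjusted p 0.0132). The Saa genes are close copies, and no source used here says how multiply mapped reads were treated. Mmp13, a collagenase, had 162 and 137 at 6 h, against 617 and 244 at 2 h (-1.37 ± 0.28, adjusted p 0.0255). The next members in order missed the threshold: Edn1, which encodes endothelin 1 (0.64, adjusted p 0.0549), Acod1, which makes itaconate (1.44, adjusted p 0.0625), and Nos2, which makes nitric oxide in stimulated macrophages (1.08, adjusted p 0.0640). Nos2 had 717 and 605 at 6 h, against 409 and 237 at 2 h. These did not overlap, but the share of all genes without overlap was not counted. Il6 had 226 and 381 at 6 h, against 465 and 291 at 2 h, and overlapped (adjusted p 0.698).

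Of 31 interferon response genes 0 rose and 0 fell, with 9 above 0 and a median of -0.19. The direction turned with 1 library: without the 2 h library of replicate 1, which the treatment label gives as 1 h, 21 lay above 0 and the median was 0.36, and without that of 2 h replicate 2, 2 lay above 0 and the median was -0.72. Cxcl10, an interferon-induced chemokine, had 632 and 400 scaled tags at 6 h, against 1199 and 426 at 2 h (log2 change -0.51 ± 0.50, adjusted p 0.639). Among 24 immediate early and AP-1 genes 0 passed, with Fos at 0.59 and Maff at -0.77 (adjusted p 0.163 and 0.171). The 16 cytokine and STAT feedback genes likewise had 0 calls, with Cish, a STAT5 target, at -1.20 (adjusted p 0.104). Of 19 antigen presentation genes 1 rose, Pdcd1lg2, the PD-1 ligand PD-L2 (1.05, adjusted p 0.0393), while 4 lay above 0 and the median was -0.46. Pdcd1lg2 had 1469 and 758 scaled tags at 6 h, against 981 and 264 at 2 h, so the groups overlapped. Its log2 change was 0.59 without the 2 h library of replicate 2 and 1.52 without that of 2 h replicate 1, and it passed in 1 of the 4 fits that leave out an LPS library. Neither the 24 hypoxia and glycolysis genes nor the 20 unfolded protein and oxidative stress genes held a call. Their medians were 0.12 and -0.08, and leaving out 1 LPS library gave -0.13 to 0.36 and -0.19 to 0.11.

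Cell cycle genes had 3 rises among 20, beside 2.08% of all genes, with 10 above 0 and a median of 0.00. On the authors' scaling 2 of the 20 rose, with 8 above 0 and a median of -0.10. Leaving out 1 LPS library at a time gave medians of -0.13 to 0.06, with 7 to 12 above 0. E2f1, a factor of S phase entry, had 574 and 860 scaled tags at 6 h, against 222 and 333 at 2 h (log2 change 1.36 ± 0.19, adjusted p 0.0044). Ccnd1, cyclin D1, had 838 and 778 at 6 h, against 364 and 240 at 2 h (1.45 ± 0.23, adjusted p 0.0083). Cdc6, which licenses replication origins, was at 0.92 (adjusted p 0.0417). Of 24 macrophage identity genes 1 rose, the nucleotide receptor gene P2ry6 (0.91 ± 0.18, adjusted p 0.0255), with 17 above 0 and a median of 0.33. Cd68 (1.00) did not pass (adjusted p 0.0561). Of 15 housekeeping genes Gusb, also a lysosomal gene, was the one call, and the median was 0.12. The 20 tested markers of other cell types had 0 calls, 6 above 0 and a median of -0.16.

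**Figure D3:**
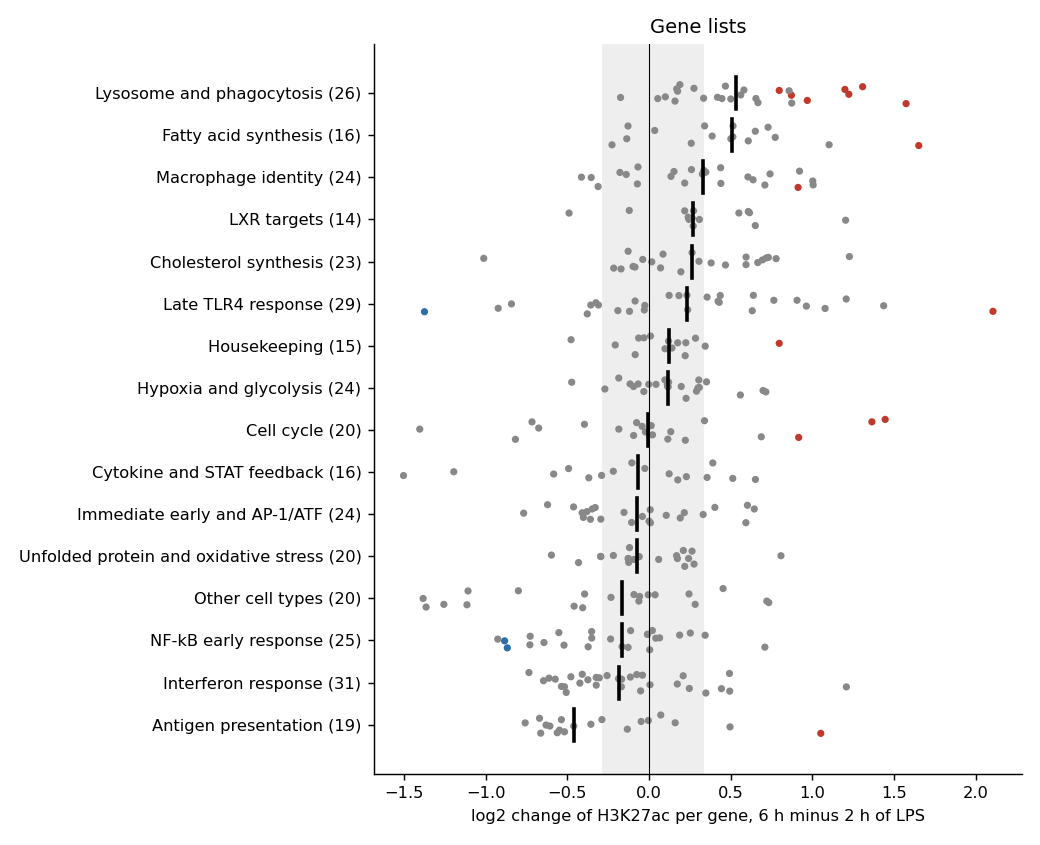
Log2 change of H3K27ac per gene, 6 h minus 2 h of LPS, for the 16 gene lists. Each point is a gene, red where it rose and blue where it fell with adjusted p under 0.05. The black bar is the list's median and the grey band is the interquartile range of all genes tested. Lysosomal genes have 7 red points and 25 of 26 points above 0. Of all genes 2.08% rose and 8612 of 17003 lay above 0.

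The largest rises over all genes included windows nearest genes known from other tissues, such as the muscle genes Acta1 and Mybpc1. Naip1, which encodes a sensor of the inflammasome, had 317 and 63.7 scaled tags at 6 h, against 64.0 and 14.3 at 2 h (log2 change 2.18 ± 0.34, adjusted p 0.0076). Its libraries overlapped between times, and the Naip genes are close copies. Acta1, skeletal muscle actin, had 720 and 587 at 6 h, against 203 and 116 at 2 h (2.07 ± 0.25). The others were Upk2 (2.01), Mybpc1 (1.96), 1700016K05Rik (1.90), 4833415N18Rik (1.87), Rnf112 (1.85), Slc6a19 (1.83), Lrrc40 (1.80) and Gm15569 (1.79), beside Saa3 and Por.

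The largest fall was that of Qpct, glutaminyl cyclase, which modifies chemokines. It had 328 and 129 scaled tags at 6 h, against 893 and 569 at 2 h (log2 change -1.79 ± 0.21, adjusted p 0.0026). Scap, the sterol sensor that escorts SREBP, had 72.6 and 31.2 at 6 h, against 127 and 138 at 2 h (-1.46 ± 0.32, adjusted p 0.0346). Nox1, an NADPH oxidase, had 96.1 and 119 at 6 h, against 186 and 396 at 2 h (-1.34 ± 0.28, adjusted p 0.0320). In these 3 genes, which were chosen by the same libraries, the 6 h and 2 h libraries did not overlap. The share of all genes without overlap was not counted, so this is a description. The others were Car4 (-1.64), Syne2 (-1.64), Casp12 (-1.44), Sbds (-1.39), Mir5619 (-1.29), Sh2d4a (-1.27), Mtmr14 (-1.26) and Zkscan17 (-1.22), beside Mmp13.

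The same change over time was measured in cells given 3'SL with LPS. Their libraries stood on neither side of the LPS comparison, but they were in the same fit and shared its estimate of the spread, its scaling and its replicate block, so the numbers of chosen regions or genes that passed here are a description and not independent of the choice. In cells given 3'SL with LPS, 691 of the 77387 regions were higher at 6 h than at 2 h (0.893%) and 144 lower (0.186%). Of the 1104 regions gained under LPS alone, 1100 lay above 0 there (99.6%, against 51.5% of all regions), 496 passed the test as higher and 0 as lower, and the median log2 change was 1.11. Of the 274 lost regions, 272 lay below 0 (99.3%), 56 passed as lower and 0 as higher, and the median was -0.99. In the replicate pairs taken singly the shares were 99.5% and 99.8% for gains and 98.2% and 99.3% for losses. At the level of genes, 155 of the 354 that rose also passed as higher (1.12% of all genes did), and 17 of the 59 that fell passed as lower (0.265% did). In 3'SL alone and in PBS, 0 regions passed between 6 h and 2 h, and the gained regions had medians of 0.04 and 0.11.

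The test of the difference between the change under LPS and that under 3'SL with LPS called 0 regions (limma, 1022 at an unadjusted p under 0.05; DESeq2 also 0), and among the named genes the lowest adjusted p was 1.00. Saa3 had 127 and 169 scaled tags at 6 h of 3'SL with LPS, against 74.7 and 108 at 2 h, a log2 change of 0.70 (adjusted p 0.387) beside 2.11 under LPS alone. The test of the difference from the change in PBS, with 1 library at 6 h, also called 0 regions with limma (5955 at an unadjusted p under 0.05). DESeq2 called 89, of which 77 were higher.

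To place the gains and losses against cells without LPS, cells with 3'SL and LPS were set against cells with 3'SL alone, which stood on neither side of the LPS comparison but were in the same fit, and these tests share the 3'SL with LPS libraries with the change over time given above. At 2 h, 6722 regions were higher with LPS (8.69%) and 5840 lower (7.55%). Of the 1104 gained regions 1030 lay below 0, 728 passed as lower and 10 as higher, with a median log2 difference of -1.06. At 6 h, 5074 of all regions were higher (6.56%) and 2480 lower (3.2%), while of the gained regions 77 were higher and 60 lower, with a median of 0.01. Of the 274 lost regions 114 passed as higher with LPS at 2 h and 4 as lower (median 0.75), and at 6 h 23 were higher and 27 lower (median -0.02). In these 3'SL-treated cells, 65.9% of the gained regions thus passed as lower with LPS than without it at 2 h, and 5.43% at 6 h.

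The vehicle libraries gave the levels without LPS directly. At gained regions the median was 189 and 207 scaled tags after 6 h of LPS and 80.1 and 78.9 after 2 h of LPS, against 238 in PBS at 6 h and 211 and 230 in PBS at 2 h. At lost regions it was 74.2 and 65.2 after 6 h of LPS and 181 and 192 after 2 h, against 98.8 in PBS at 6 h and 82.7 and 97.6 in PBS at 2 h. Ctsd had 5339 and 5175 after 6 h of LPS and 1967 and 1583 after 2 h of LPS, against 5866 in PBS at 6 h and 6699 and 6047 in PBS at 2 h. Atp6v0d2 had 1992 and 2152 after 6 h of LPS, against 6590 in PBS at 6 h, so its level at 6 h was below that of vehicle. Saa3 had 279 and 755 after 6 h of LPS and 73.8 and 152 after 2 h of LPS, against 29.7 in PBS at 6 h and 12.3 and 38.2 in PBS at 2 h. Rel had 1802 and 2348 after 6 h of LPS and 3474 and 4153 after 2 h of LPS, against 2234 in PBS at 6 h and 1678 and 2434 in PBS at 2 h.

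**Figure D4:**
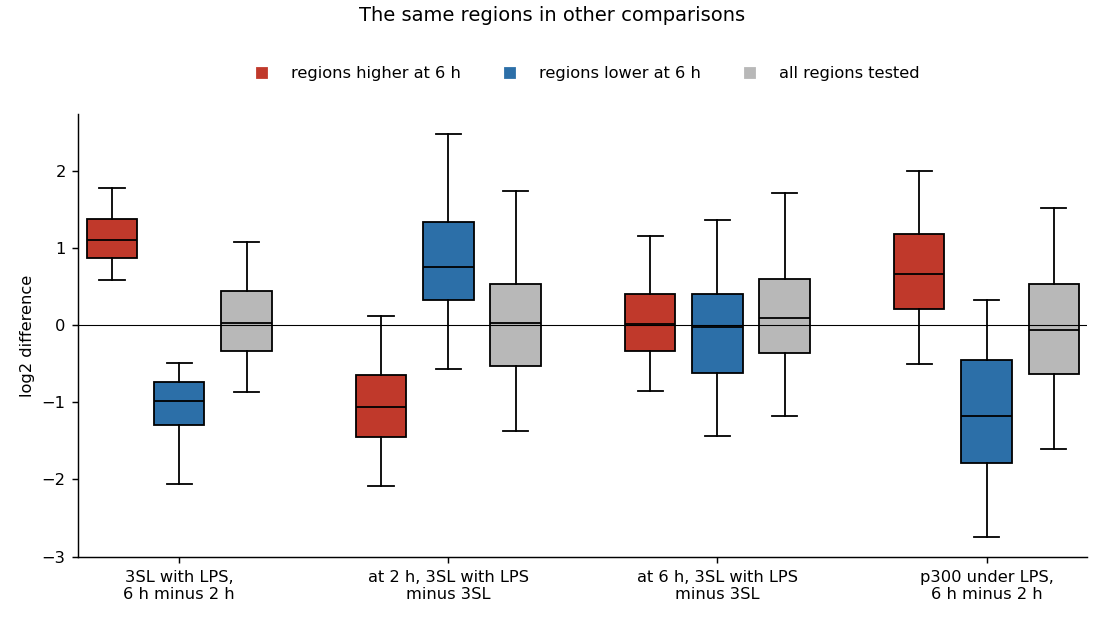
Log2 differences at gained, lost and all tested regions in comparisons other than LPS at 6 h against 2 h: 3'SL with LPS at 6 h minus 2 h, 3'SL with LPS minus 3'SL at 2 h and at 6 h, and p300 under LPS at 6 h minus 2 h. The 3'SL libraries were in the fit that chose the regions and the p300 libraries were not. Boxes span the quartiles with the median as a line and whiskers the 5th to 95th percentile; gained regions have medians of 1.11, -1.06, 0.01 and 0.66 and lost regions of -0.99, 0.75, -0.02 and -1.18.

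The acetyltransferase p300 was profiled in separate libraries of the same treatments, counted in the central 200 bp. Between 6 h and 2 h of LPS 31 of 62225 regions were higher (0.0498%) and 65 lower (0.104%). Regions also passed as higher between 6 h and 2 h of PBS, where p300 had 1 library at each time. The p300 rises under LPS are thus not shown to be particular to LPS. Of the 1069 gained regions with a p300 value, 83.2% lay above 0 (47.1% of all regions did), the median log2 change was 0.66 and 11 passed as higher. Of 228 lost regions with a value, 89.9% lay below 0, the median was -1.18 and 9 passed as lower. Across 59602 regions the Spearman correlation of the changes in H3K27ac and p300 was 0.34, a description over regions that share their libraries and are not independent. Without the replicate block 0 p300 regions were called (limma, 3154 at an unadjusted p under 0.05). On the authors' scaling 1 was higher and 62 lower. The split turned with 1 library: without the 2 h library of replicate 1, 35 were higher and 1 lower, without that of 2 h replicate 2 2 and 0, without that of 6 h replicate 1 13 and 22, and without that of 6 h replicate 2 3 and 91.

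The region near Ikzf1 passed in both measurements: p300 there was 17.1 and 0 scaled tags at 6 h, against 127 and 35.1 at 2 h (log2 change -4.00 ± 0.89, adjusted p 0.0495). At the region in Lrp1 p300 was 66.5 and 30.95 at 6 h, against 35.4 and 7.52 at 2 h (1.40 ± 0.49, adjusted p 0.270), a change that did not pass. At the promoter region of Gpnmb the p300 change was 2.73 ± 0.62 (adjusted p 0.0541), and at Saa3 0.88 ± 1.00 (adjusted p 0.826).

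Gained and lost regions lay in different places. Promoters held 5.62% of gained regions (62), 30.7% of lost regions (84) and 18.5% of all tested regions. Introns held 56.97% of gained, 31.8% of lost and 43.3% of all. Within 1000 bp of a gene start lay 9.06% of gained, 46.0% of lost and 24.4% of all regions, and over 10000 bp away 62.3%, 34.7% and 54.2%. The median GC content of the central 200 bp was 50.5% for gained, 53.75% for lost and 50% for all.

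Short motifs were counted on both strands of the central 200 bp, as matches to letters and not as bound sites. The NF-kB letters GGNNTTTCC stood in 1.54% of gained regions, 12.0% of lost regions and 5.64% of all. The STAT letters TTCNNNGAA stood in 3.35% of gained, 8.76% of lost and 5.72% of all. The MAF core TGCTGAC ran the other way, with 9.15% of gained, 1.82% of lost (5 of 274) and 5.20% of all. The M-box TCATGTGA stood in 3.80% of gained, 1.09% of lost (3 of 274) and 1.39% of all. Its share among lost regions was thus near that of all regions. AP-1 (TGANTCA) stood in 26.1% of gained, 13.9% of lost and 18.4% of all, and C/EBP (TTGCNNAA) in 15.9%, 6.93% and 10.7%. PU.1 (GAGGAAGT) stood in 13.5% of gained, 8.76% of lost and 9.80% of all. The E-box CACGTG stood in 5.53% of gained, 4.38% of lost and 3.97% of all, a smaller gap. The GC-rich Sp and KLF letters GGGCGGG stood in 5.07%, 17.9% and 11.6%. A motif of 1 factor can overlap that of another: the MAF core and AP-1 were both present in 1067 of the tested regions.

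The shares were also taken farther than 1000 bp from a gene start, where 1004 gained and 148 lost regions lay. There NF-kB stood in 1.59% of gained, 12.2% of lost and 5.92% of all regions, and the MAF core in 9.66%, 2.70% and 5.89%. The M-box stood in 3.88%, 2.03% and 1.65%. PU.1 stood in 13.4%, 14.2% and 11.8%, so the order of gained and lost seen over all regions did not hold for it there. For Sp and KLF the shares came to 3.49%, 5.41% and 3.51%. AP-1 stood in 27.3% of gained, 21.6% of lost and 22.6% of all regions, so lost regions were near all regions there. Within 1000 bp of a gene start, lost regions did not lead over all regions for Sp and KLF (32.5% against 36.4%) or STAT (3.97% against 4.12%).

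Peaks of LXR, the oxysterol receptor, and of SREBP, the sterol-regulated factor, came from other macrophages, treated for 18 h with 1 µM of GW3965, which activates LXR, and each factor has 1 peak list. An LXR peak overlapped 67.5% of gained, 41.6% of lost and 34.3% of all windows. A SREBP peak overlapped 60.1% of gained, 41.6% of lost and 33.0% of all. The lists overlap strongly with each other: of the gained windows with an LXR peak 72.5% also had a SREBP peak, and of those with a SREBP peak 81.3% had an LXR peak. Farther than 1000 bp from a gene start the LXR shares were 68.6%, 50% and 34.1%. Counted on the central 200 bp, they were 56.4% of gained, 28.1% of lost and 27.8% of all. Gained regions also had more H3K27ac without LPS. Their medians in the PBS libraries were 211 to 238 scaled tags, against 82.7 to 98.8 at lost regions and 30.3 to 31.7 at all tested regions. The overlap shares were not matched for this level, and its part in them was not tested.

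**Figure D5:**
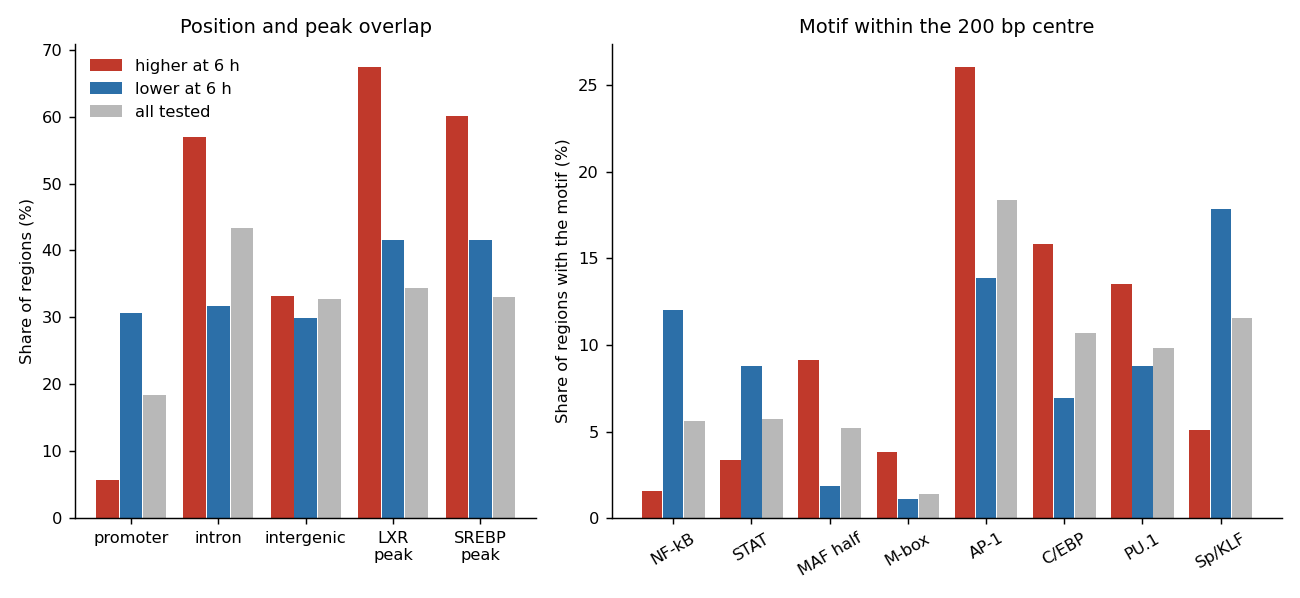
Share of gained, lost and all tested regions (percent, bars from 0) in each annotation class or overlapping an LXR or SREBP peak (left), and holding each motif in the central 200 bp (right). Lost regions lead in promoters (30.7%), NF-kB (12.0%), STAT and Sp/KLF, and gained regions in introns (56.97%), LXR peaks (67.5%), MAF and AP-1. The shares are over all distances from a gene start.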

How the data were processed

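H3K27ac and p300 were measured by ChIP-seq. Bowtie2, HOMER, DESeq2 and the build mm10 are named in the submitters' processing notes, with no versions or roles. Per the file headers, the deposited signal was made with HOMER annotatePeaks.pl: the authors counted tags around the centre of each ATAC region, over 1000 bp for H3K27ac and 200 bp for p300, and scaled each library to 10000000 tags. Multiplying back by the header's total gave whole tags (within 0.05) for all values, and these were used for filtering and for the count tests. The deposited LXR and SREBP lists hold peak positions (coordinates) with no value of their own. The deposited p65 list was not used: 329 of its 41220 peaks lie past the end of a GRCm38 chromosome. A further 10 value columns could be tied to no sample by their names and were left out.

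Regions passed edgeR's filterByExpr (77387 of 97113), and values were rescaled by tags in tested regions times TMM factors. A gene is the sum over the regions that the authors' annotation assigns to it as nearest gene (17003 of 18761 genes tested). Log2(value + 1) was fitted with limma 3.58.1 (R 4.3.3), trended empirical Bayes, with a mean per group and the replicate number as a block, over 15 H3K27ac libraries (6 residual degrees of freedom) or 14 p300 libraries (5). P-values are two-sided, Benjamini-Hochberg adjusted over all features, threshold 0.05, no fold threshold. A fold change on the log2(value + 1) scale understates the change of low regions. Where a group has 1 library in a fit (PBS at 6 h, and for p300 also PBS at 2 h), it is assumed to vary like the others. The comparison pairs libraries by replicate number. Deviations of same-numbered libraries from their group means correlated in all 21 pairs of the 7 replicated groups (0.445 to 0.670, LPS at 6 h with 2 h 0.522), so the numbers pair the samples. Replicates differed beyond counting noise (chi-square per degree of freedom 11.8 to 28.3), so none was a duplicate.

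Named genes were the 12 largest rises and 12 largest falls among those called, with the same sign in both pairs and a mean of at least 50 scaled tags, up to 4 members of each list by smallest p, and 7 genes whatever their values. Named regions were the 8 largest each way with a mean of at least 20, 1 per nearest gene. Other genes and regions given were chosen after their values were seen. The members and lists were chosen with earlier results of these data known. A result for 1 macrophage gene is not reported here, and the sum over macrophage markers leaves it out. Alternatives were edgeR 4.0.16 and DESeq2 1.42.0 on the tags, no block, other scalings, pseudocount 5, no filter, fewer libraries, gene starts alone and the authors' merged H3K27ac peaks. Motifs were searched in the GRCm38 sequence (RefSeq). The fit was also run on simulated data with the same spread for every feature, so that run cannot show how far the calls made here hold.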

Additional observations from a re-analysis of the deposited data

How the results depend on the processing

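The paired calls are the base of the counts. Against 1378 regions, 413 genes, 18 list members and 96 p300 regions, dropping the replicate block gave 0 of each with limma and with edgeR (a fit chosen after seeing the data). Leaving out each LPS library in turn gave 8 to 799 regions, 0 to 151 genes, 0 to 8 list members and 2 to 94 p300 regions. The lowest region and gene counts came without the 6 h library of replicate 2, and the lowest p300 count came without the 2 h library of replicate 2. DESeq2 gave 3014 regions, 966 genes, 36 list members and 170 p300 regions, and 89 regions for the difference from vehicle, where limma gave 0. The 4 LPS libraries alone, with 1 residual degree of freedom, gave 3947 regions (2570 higher, 1377 lower), 850 genes, 37 list members and 1042 p300 regions. On the authors' scaling 221 genes, 10 list members and 63 p300 regions passed. With pseudocount 5, 302 p300 regions passed, with edgeR 186 and with no filter 166. From windows within 1000 bp of a gene start alone 242 genes passed. Counted on the central 200 bp, LXR peaks overlapped 56.4% of gained and 28.1% of lost regions and SREBP peaks 49.8% and 27.01%. Changes of sign occurred in genes that did not pass: Tnf was at -0.057 on the authors' scaling, -0.046 without TMM and -0.014 with no filter. Leaving out each LPS library in turn gave -0.21 to 0.29 for Tnf, -0.33 to 0.10 for Il1b, -0.91 to 0.26 for Il6 and -1.16 to 0.14 for Cxcl10. From gene starts alone, Cxcl11 was at 0.31 and Rplp0 at -0.23. The causes were not tested. Of the 36 named genes called, all passed with DESeq2, 35 with edgeR, 0 without the block and 0 to 19 without 1 LPS library. The overlap with p65 peaks was not run. Counting depth limits low regions, such as those at 1.30 to 20.6 scaled tags at 6 h.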
